A study of Homo sapiens with 6 samples.

Results

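The granins and the enzymes of the dense-core vesicle that process prohormones were followed in HEK293T cells with and without valproic acid (VPA). The 10 genes were chosen by their symbols, as granin and prohormone-processing genes, and all 10 are among the 47470 genes listed in each count file. They are the granins CHGA, CHGB, SCG2, SCG3 and VGF, the convertase chaperone SCG5, the convertases PCSK1 and PCSK2, the carboxypeptidase CPE and the amidating enzyme PAM. HEK293T is a transformed human embryonic kidney cell line. VPA is a small-molecule inhibitor of histone deacetylases. The untreated group held 3 libraries of cells with the genotype WT and no agent, and the VPA-treated group held 3 libraries of cells given 1 mM VPA for 1 day. No other allele or agent is named for either group. Both groups come from this single line in culture and describe no endocrine tissue. The labels do not say that the libraries of a group came from separate cultures, so the p-values measure only the spread between these libraries, which may be technical.

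Endocrine and nerve cells store peptide hormones in dense-core vesicles and release them on a calcium signal. Granins are acidic proteins that condense in the late Golgi and help to form these vesicles. The convertases cut a prohormone after pairs of basic residues, CPE trims the basic residues that are left at the new end, and PAM turns a terminal glycine into an amide. Many genes of this pathway carry a binding site for the repressor REST, which recruits histone deacetylases and keeps nerve and endocrine genes low in other cells.

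Each library held between 18622267 and 18828495 reads counted on genes, and libraries of the same group differed by more than sampling noise. Of the 7 kidney development markers checked, 6 had enough counts to be tested. Their summed counts ran from 6006 to 6503 without VPA and from 4383 to 4442 with VPA. By adjusted p 2 genes were higher (PAX2 and LHX1) and 4 lower, beside 32.9% and 30.0% of all tested genes. Most of the fall in summed counts was HOXD11, at 9922 counts over the untreated and 5442 over the VPA-treated libraries. PAX8, a defining kidney marker, had at most 1 count in any library. Markers of other cells were rare. The 4 blood cell markers summed to 15 to 25 counts in untreated and 29 to 40 in VPA-treated libraries, the 3 endothelial markers to 0 to 4 and 18 to 25, and the 3 hepatocyte markers to 0 to 3 and 1 to 2. PTPRC, CD3E, HBB, CDH5 and TTR had no count in any untreated library, and most of the endothelial counts were VWF. The part of these marker genes in the results below was not tested. In bulk RNA, fewer cells with a transcript and less of it per cell cannot be told apart.

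The region around the start of transcription is shown for 5 members. In CHGA, VGF, PCSK1 and SCG3 it holds letters searched for the pathway's known regulators. CPE is shown because its counts differed most clearly between the groups, and its window has none of the letters searched. The windows of the first PCSK2 start and the second PCSK1 start, which hold the right part of the REST site, are not shown. The windows are from RefSeq (GRCh38.p14), run from 250 bases before to 50 bases after the start, and are written 5′ to 3′ along the gene. Capitals mark 3 motifs, searched on both strands: TGACGTCA, the palindromic cAMP response element (CRE), and TTCAGCACC and GGACAGC, the left and right parts of the REST site (RE1), the latter read as GCTGTCC on the reverse strand.
CHGA, chr14:92922900-92923199, plus strand: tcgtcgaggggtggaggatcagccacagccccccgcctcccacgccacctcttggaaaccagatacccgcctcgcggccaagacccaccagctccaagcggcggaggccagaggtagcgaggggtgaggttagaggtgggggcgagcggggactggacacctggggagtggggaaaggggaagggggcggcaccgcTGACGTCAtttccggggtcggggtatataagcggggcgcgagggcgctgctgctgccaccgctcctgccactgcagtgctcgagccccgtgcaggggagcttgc
VGF, chr7:101165520-101165819, minus strand: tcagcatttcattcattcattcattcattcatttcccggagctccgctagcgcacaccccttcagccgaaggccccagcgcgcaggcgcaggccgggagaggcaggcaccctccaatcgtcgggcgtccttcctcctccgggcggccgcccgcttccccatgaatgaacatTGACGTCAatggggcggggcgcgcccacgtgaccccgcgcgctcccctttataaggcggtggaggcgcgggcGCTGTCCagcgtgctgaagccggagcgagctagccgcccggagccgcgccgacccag
PCSK1, chr5:96433199-96433498, minus strand: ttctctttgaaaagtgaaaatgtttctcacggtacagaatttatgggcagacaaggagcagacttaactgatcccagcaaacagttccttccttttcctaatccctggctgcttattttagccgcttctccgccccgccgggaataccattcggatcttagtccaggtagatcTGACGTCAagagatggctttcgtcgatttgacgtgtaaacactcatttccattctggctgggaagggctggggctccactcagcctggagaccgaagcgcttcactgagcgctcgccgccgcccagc
SCG3, chr15:51681253-51681552, plus strand: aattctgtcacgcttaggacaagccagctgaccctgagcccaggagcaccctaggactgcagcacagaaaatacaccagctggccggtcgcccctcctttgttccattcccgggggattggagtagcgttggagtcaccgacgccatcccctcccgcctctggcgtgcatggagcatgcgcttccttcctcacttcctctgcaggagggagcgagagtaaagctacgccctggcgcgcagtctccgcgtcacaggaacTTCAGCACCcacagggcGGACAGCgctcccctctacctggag
CPE, chr4:165378758-165379057, plus strand: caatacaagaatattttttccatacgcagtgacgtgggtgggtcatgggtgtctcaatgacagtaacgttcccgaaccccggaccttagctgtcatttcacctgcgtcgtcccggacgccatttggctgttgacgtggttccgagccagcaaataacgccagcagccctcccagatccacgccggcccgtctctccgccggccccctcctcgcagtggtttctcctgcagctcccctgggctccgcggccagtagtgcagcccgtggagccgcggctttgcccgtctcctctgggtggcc

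The table of windows had entries for 8 of the 10 members, with none for CHGB and SCG2. These 8 members have 12 windows, since PCSK1, PCSK2 and PAM have several starts, so a share of members below is not the same unit as the share of windows beside it. The CRE was found in 3 of these 8 members, 54 bases before the start of CHGA, 79 before that of VGF and 77 before that of the first PCSK1 start, and in 1.85% of all 35116 windows. As exact letters, the left part of RE1 was found in SCG3 alone among the members, 8 bases after the start. It was found in 0.376% of all windows. The right part was found in SCG3, VGF, PCSK2 and the second PCSK1 start, which is 4 of 8 members, and in 6.03% of all windows. In SCG3 the right part followed the left part on the same strand with 8 bases between them. The TATA box letters TATAAA were present in VGF, on the reverse strand as TTTATA, and in the second PCSK1 start, and in 11.5% of all windows, and the GC box GGGCGG in 7 of 8 members and in 45.0% of all windows. In SCG3 and the second PCSK1 start, GC box letters overlap those of the right part of RE1. These matches describe the letters only.

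**Figure D1:**
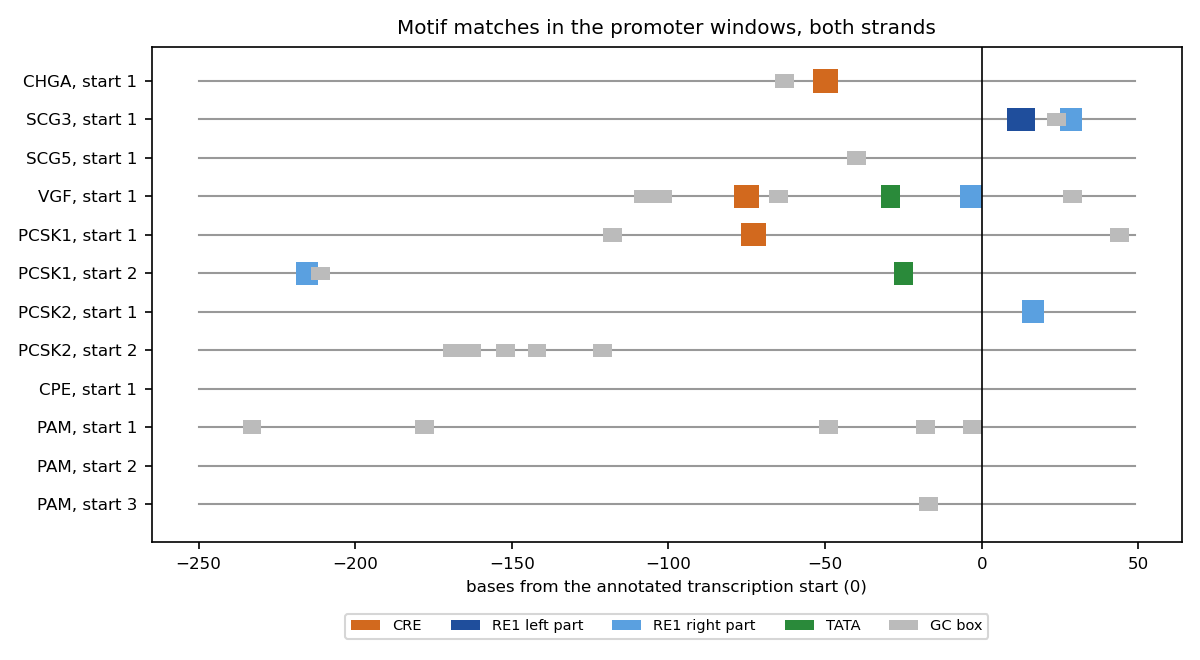
Motif matches in the RefSeq windows of the members, by distance in bases from the annotated start (x axis), with 1 line per start (y axis) and 1 symbol per motif. CRE letters sit at 54 to 79 bases before the start in CHGA, VGF and PCSK1, both parts of RE1 lie just after the start of SCG3, and CPE has neither.

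The 10 genes fell into 2 genes with a high level and 8 with at most 27 counts in any library. CPE and PAM together gave 97.2% to 98.4% of the counts of all members in every library. The other 8 genes summed to 46 to 65 counts in untreated libraries and 53 to 69 in VPA-treated libraries, or 2.44 to 3.69 CPM (counts per library scaled by its total). Only CPE, PAM, CHGA, CHGB and SCG3 had enough counts to be tested. None of these 5 reached the study's threshold of a log2 fold change of at least 1 with an adjusted p under 0.05 (edgeR, quasi-likelihood test, Benjamini-Hochberg over 15298 genes), where 12.0% of all tested genes were up-regulated. None was down-regulated, against 0.503% of all tested genes. By adjusted p alone CPE and CHGB were higher with VPA, as were 32.9% of all tested genes, and 0 members were lower, against 30.0%. CHGB passed the low-count filter only through its VPA-treated libraries, so the share of members that were higher was not read against the share of all genes. At an unadjusted p under 0.05, edgeR had the same 2 higher and 0 lower. DESeq2 gave an adjusted p for 7 of the 10 genes, not for SCG2, SCG5 and PCSK1, and called 0 up-regulated and 0 down-regulated, and by adjusted p alone only CPE was higher.

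**Figure D2:**
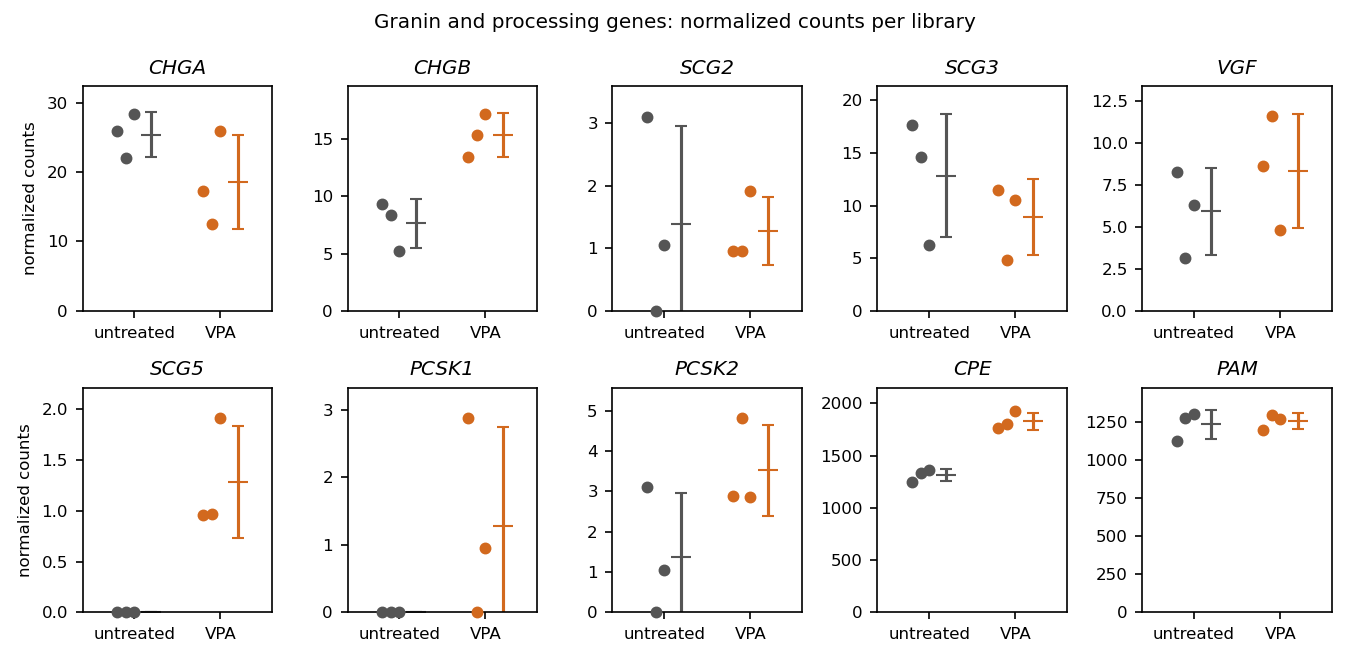
Normalized read counts of the 10 members (y axis, linear from 0, own scale in each panel) in the 3 untreated and 3 VPA-treated libraries. Points are libraries, lines are means and bars are SD, cut at 0. The groups are apart for CPE, for CHGB and, at no more than 2 counts, for SCG5, and overlap for the other 7 genes.

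Levels of different genes were compared as normalized CPM per kilobase of the canonical transcript. In untreated cells CPE was highest at 27.2 ± 1.23 (SD, n = 3), followed by PAM at 16.5 ± 1.29 and CHGA at 0.683 ± 0.0863, and the ranges of these neighbours did not overlap. SCG3 (0.217 ± 0.0991) lay below CHGA in all 3 libraries and overlapped with CHGB (0.166 ± 0.0462), which overlapped with VGF (0.124 ± 0.0543). SCG2, PCSK2 and PCSK1 followed without separation. SCG5 was given no place in this order, since its counts are not read as a level, as described with its transcript. With VPA, CPE at 37.8 ± 1.73 and PAM at 16.8 ± 0.695 were again the highest, CHGA (0.499 ± 0.182) overlapped with CHGB (0.333 ± 0.0414), and CHGB lay above VGF (0.174 ± 0.0711) in every library. SCG3 (0.151 ± 0.0610) then overlapped with VGF.

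**Figure D3:**
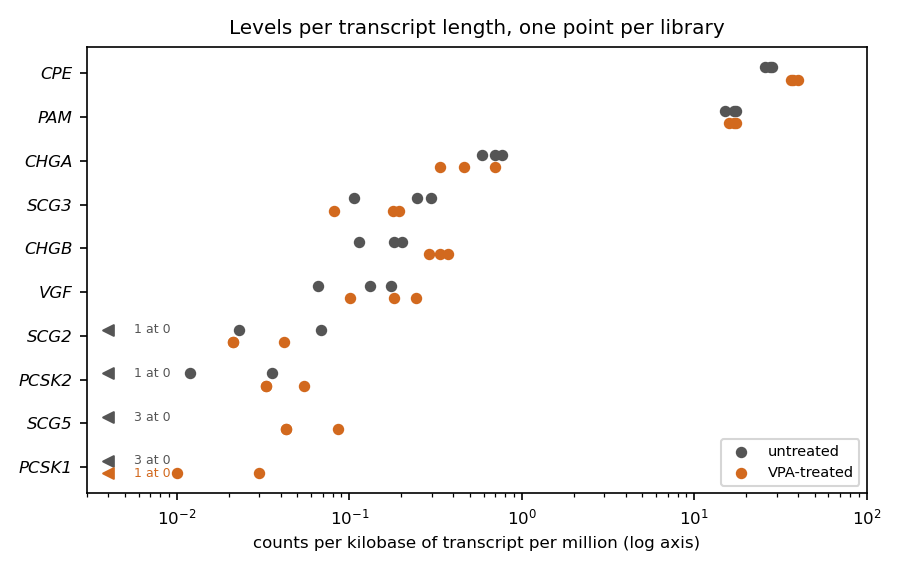
Level of each member (y axis) per transcript length (x axis, log scale, CPM per kilobase), with 1 point per library, gray for untreated and orange for VPA-treated. CPE and PAM lie far above the other 8 genes, and libraries with no count are drawn as arrows at the left edge. The points of SCG5 are not read as a level of that gene, which shares most of its canonical transcript with a read-through gene.

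Among the granins, CHGA was the most abundant by transcript length. CHGA (chromogranin A, chr14:92922664-92935285) is the granin most used as a marker of neuroendocrine tissue. It had 25, 21 and 27 counts in the untreated libraries, and with VPA the libraries held 18, 13 and 27. The first and second VPA-treated libraries were below all untreated libraries and the third equalled the highest, so the groups overlapped. Its mean normalized count was 25.4 ± 3.21 without VPA and 18.5 ± 6.76 with VPA (SD, n = 3). The log2 fold change was -0.45 (SE 0.26, 95% interval -0.998 to 0.097, edgeR adjusted p = 0.142). Without VPA-treated library 3 it was -0.77 with an adjusted p of 0.0302, and without VPA-treated library 2 it was -0.24 with an adjusted p of 0.479 (edgeR).

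CHGB (chromogranin B, chr20:5911510-5925353) is stored beside CHGA in the same vesicles. Its counts were 9, 8 and 5 in untreated and 14, 16 and 18 in VPA-treated libraries. All VPA-treated libraries were above all untreated ones. The mean normalized count was 7.65 ± 2.13 without VPA and 15.4 ± 1.91 with VPA, a fold change of 1.99 (95% interval 1.23 to 3.23), or 0.99 ± 0.34 (SE) on the log2 scale, with an edgeR adjusted p of 0.014. No untreated library of CHGB was over the low-count filter, so it was tested only through its VPA-treated libraries, and a gene that passes this way is higher with VPA by construction. Of the tested genes whose mean normalized count was under 50, 29.4% were up-regulated. The call by adjusted p was lost with DESeq2 (log2 fold change 0.98, adjusted p = 0.138), without untreated library 3 (0.78, adjusted p = 0.0783) and without VPA-treated library 3 (0.90, adjusted p = 0.0550). Leaving out untreated library 1, untreated library 2 or VPA-treated library 1 instead brought CHGB past both thresholds, with log2 fold changes up to 1.15, as did scaling to library totals (1.12) and to ribosomal protein genes (1.26).

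SCG3 (secretogranin III, chr15:51681503-51721026) binds CHGA to the cholesterol-rich vesicle membrane. Its counts were 17, 14 and 6 in untreated and 12, 5 and 11 in VPA-treated libraries. Both groups held a library with few counts, and they overlapped. The mean normalized count was 12.9 ± 5.86 without VPA and 8.95 ± 3.61 with VPA, with a log2 fold change of -0.52 (SE 0.40, 95% interval -1.34 to 0.31, edgeR adjusted p = 0.265). It ran from -0.85 without untreated library 3 to -0.22 without VPA-treated library 2, with no call.

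VGF and SCG2 did not pass the filter. VGF (chr7:101162509-101169952) is a granin that nerve growth factor induces and that is cut into several active peptides. It had 8, 3 and 6 counts in untreated and 9, 12 and 5 in VPA-treated libraries, which overlap. Over the pooled groups this was 17 against 26 counts, a ratio of 1.41 with a 95% counting interval of 0.734 to 2.76. SCG2 (secretogranin II, chr2:223596940-223602361), the precursor of secretoneurin, had 3, 0 and 1 against 1, 1 and 2 counts, a ratio of 0.919 (0.171 to 4.94). A difference was not detectable at this depth for either gene, and the intervals cover counting error only.

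**Figure D4:**
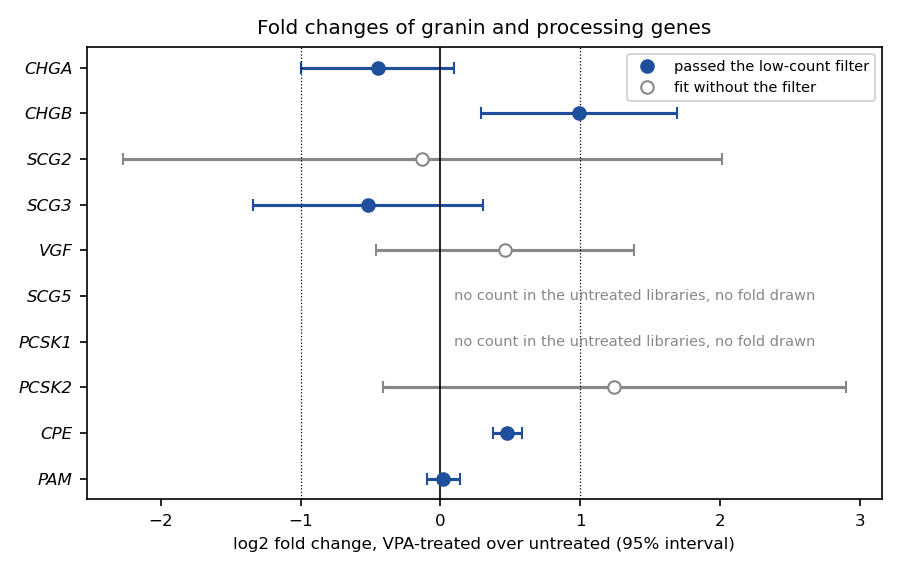
log2 fold change of each member, VPA-treated over untreated (x axis), with the 95% interval from edgeR. Filled points passed the low-count filter, open points come from a fit without it, and dotted lines mark the threshold of 1. CPE and CHGB have intervals above 0, and no fold is drawn for SCG5 and PCSK1, which had no count in untreated cells.

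CPE was the member with the clearest difference. CPE (carboxypeptidase E, chr4:165379008-165498547) removes C-terminal lysine and arginine residues and also binds prohormones at the membrane. Its normalized counts were 1247, 1330.4 and 1362 in untreated libraries and 1762, 1802 and 1923 in VPA-treated libraries. Every VPA-treated library was above every untreated library. The mean rose from 1313 ± 59.5 to 1829 ± 83.4 (SD, n = 3), a fold change of 1.39 (95% interval 1.30 to 1.50), or 0.48 ± 0.049 (SE) on the log2 scale, with an edgeR adjusted p of 2.59e-08. It passed the adjusted p threshold without each library in turn, at 0.44 to 0.50, and was 0.61 with scaling to library totals and 0.75 with scaling to ribosomal protein genes, all below the fold threshold of the study.

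PAM (peptidylglycine alpha-amidating monooxygenase, chr5:102754783-103031105) did not differ beyond the spread. Its raw counts were 1086, 1218 and 1242 in untreated and 1247, 1345 and 1324 in VPA-treated libraries. After normalization the groups overlapped, at 1234 ± 96.4 and 1253 ± 52.0. The log2 fold change was 0.021 (SE 0.055, edgeR adjusted p = 0.754), and its sign depended on single libraries and turned with DESeq2 and without the low-count filter. It was 0.15 (adjusted p = 0.020) when scaled to library totals and 0.30 (adjusted p = 6.88e-05) when scaled to ribosomal protein genes, and -0.048 without untreated library 1.

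The prohormone convertases PCSK1 and PCSK2 were barely detected. PCSK2 (chr20:17226107-17484578), the convertase of later vesicles, had 3, 0 and 1 counts in untreated and 3, 5 and 3 in VPA-treated libraries. The pooled ratio was 2.53 (95% counting interval 0.749 to 10.9). PCSK1 (chr5:96390333-96433248), which makes the first cuts in many prohormones, had no count in untreated and 3, 0 and 1 in VPA-treated libraries. A total of 0 in the untreated group allows up to 3 counts, so no fold is given for its 4 counts with VPA. SCG5 (chr15:32641710-32697092), the chaperone 7B2 that keeps PCSK2 inactive until it reaches the vesicle, had 0, 0 and 0 against 1, 1 and 2 counts. In an edgeR fit without the filter, both genes had an adjusted p of 0.132.

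The counts of SCG5 are not read as a level of this gene. Of the 1198 bases of its canonical transcript in GENCODE 44, 1126 (94.0%) are also exons of the read-through gene ARHGAP11A-SCG5 on the same strand. That leaves 72 bases of this transcript outside the read-through gene, and reads in shared exons can be set aside as ambiguous. Over all annotated exons of SCG5, 1129 of 2196 bases (51.4%) are shared. How many reads were set aside was not tested. ARHGAP11A-SCG5 and the antisense gene SCG5-AS1 were listed at 0 in every library, and ARHGAP11A, the upstream gene, had 666 to 792 counts. PCSK1N, the inhibitor of PCSK1, was listed at 0, as were all genes of its chromosome, and is not analysed here.

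REST, the repressor that binds RE1, had a mean normalized count of 714 ± 49.8 without VPA and 679 ± 44.0 with VPA. The groups overlapped and the log2 fold change was -0.074 (edgeR adjusted p = 0.319). Its sign turned with the scaling, to 0.057 with library totals and to 0.20 (adjusted p = 0.0101) with ribosomal protein genes.

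The other enzymes that cut and finish peptides were present at high levels. Of 8 genes listed as other proprotein convertases, PCSK1N included, 6 were tested. Of these 0 were up-regulated or down-regulated (12.0% and 0.503% of all tested genes). By edgeR adjusted p alone 2 were higher and 1 lower (32.9% and 30.0% of all tested genes). The median log2 fold change was 0.031, beside 0.0058 for all tested genes. MBTPS1, which cuts membrane-bound transcription factors, was at 3659 ± 237 and 3453 ± 68.7 normalized counts, and FURIN, the convertase of the Golgi, at 1804 ± 76.3 and 1978 ± 123 (log2 fold change 0.13, edgeR adjusted p = 0.0243). The remaining 2 calls, named after their values were seen, were PCSK5 (0.52) and PCSK6 (-0.46). Of 7 other carboxypeptidases of the CPE branch 2 were tested and 1 was up-regulated, beside 12.0% of all tested genes. CPM, a membrane carboxypeptidase, was up-regulated from 86.3 ± 5.90 to 199 ± 22.6 (log2 fold change 1.20, edgeR adjusted p = 9.88e-09), while CPD of the late Golgi was at 2548 ± 40.9 and 2407 ± 94.3 without a call.

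Of 7 other peptide-modifying enzymes 6 were tested and 5 were higher by adjusted p, beside 32.9% of all tested genes. None was past the fold threshold. CTSL, a lysosomal protease that also cuts prohormones in vesicles, rose from 1665 ± 121 to 2024 ± 46.0 (log2 fold change 0.28). MOXD1, a relative of dopamine beta-hydroxylase, rose from 564 ± 7.61 to 996 ± 9.52 (0.82, edgeR adjusted p = 1.32e-11). At an unadjusted p under 0.05 the count was the same 5, and the number of these enzymes past the fold threshold ranged from 0 to 2 over the alternative settings.

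The genes that build, move and release dense-core vesicles held several up-regulated genes. Of 32 listed 22 were tested, 10 were up-regulated and 0 down-regulated (12.0% and 0.503% of all tested genes), and by adjusted p alone 16 were higher and 4 lower (32.9% and 30.0%). The median log2 fold change was 0.85. KIF1A, the motor that carries dense-core vesicles along axons, had 1847, 1804 and 1762 counts in untreated and 5848, 5737 and 5681 in VPA-treated libraries (log2 fold change 1.55, SE 0.040). SYT7, a calcium sensor of slow release, rose from 244 ± 7.07 to 879 ± 45.9 (1.85), and SYT9, another calcium sensor, from 41.8 ± 1.74 to 205 ± 3.31 (2.29). RAB3B, a small GTPase on the vesicle surface, rose from 334 ± 14.9 to 957 ± 45.3 (1.52). The members not past the fold threshold with the most counts were lower, ARFIP2 with 2566 ± 64.7 against 2176 ± 92.5 (-0.24) and RAB2A with 1502 ± 35.9 against 1349 ± 17.7 (-0.16). With scaling to ribosomal protein genes both turned to the other sign, at 0.036 and 0.12. PTPRN, CADPS and SLC30A8, named after their values were seen, had no count in any library, and SYTL4 lies on chromosome X, whose genes are all listed at 0, and gives no value.

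The peptide prohormones, the cargo of the pathway, were mostly too low to be tested. Of 58 listed, 23 had no count in any library, and 1 of these, APLN, lies on chromosome X and gives no value (named after its values were seen). Of the 14 tested, 6 were up-regulated and 0 down-regulated, beside 12.0% of all tested genes and 29.4% of those with low counts up-regulated, and by adjusted p alone 9 were higher and 2 lower, with a median log2 fold change of 0.79. CALCB, the precursor of beta-CGRP, had 188, 205 and 179 counts in untreated and 627, 620 and 635 in VPA-treated libraries (log2 fold change 1.60, edgeR adjusted p = 3.50e-14). TAC1, the substance P precursor, had 5, 8 and 11 against 88, 97 and 99 counts (3.42, edgeR adjusted p = 1.64e-11). NPY had 14, 8 and 7 against 93, 94 and 102 (3.18), and NTS, the neurotensin precursor, 16, 7 and 9 against 94, 81 and 74 (2.82). Each of TAC1, NPY and NTS had 1 untreated and 3 VPA-treated libraries over the low-count filter. They were tested only through their VPA-treated libraries, so the number of up-regulated prohormones was not read against the shares of all genes. GAL, the galanin precursor and the most abundant prohormone here, fell from 1765 ± 201 to 1202 ± 88.3 (-0.55, edgeR adjusted p = 1.83e-05), and NMU rose from 237 ± 12.5 to 413 ± 17.2 (0.80). With a filter of 10 counts in every library, NPY, TAC1 and NTS were no longer tested and 3 of 10 prohormones were up-regulated, and with scaling to ribosomal protein genes 8 were.

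Transcription factors and markers of neuroendocrine cells gave few testable genes. Of 15 transcription factors 6 were tested and 3 were up-regulated, beside 12.0% of all tested genes and 29.4% of those with low counts. Over the alternative settings this number ranged from 2 to 3. PROX1 rose from 109 ± 7.10 to 218 ± 15.2 normalized counts (log2 fold change 1.01) and MYT1 from 89.8 ± 9.84 to 196 ± 17.9 (1.12). With DESeq2 PROX1 was at 0.98, under the fold threshold. FEV had 0, 2 and 0 against 13, 12 and 14 counts and was tested only through its VPA-treated libraries. POU3F2 was at 850 ± 43.5 and 877 ± 27.0 without a call, and ISL1 fell from 506 ± 9.04 to 387 ± 16.5 (-0.38). Of 6 other markers 3 were tested. By adjusted p 3 were higher and 2 of these up-regulated, beside 32.9% and 12.0% of all tested genes. ENO2 was at 235 ± 2.83 and 616 ± 17.1 (1.39), NCAM1 at 785 ± 63.5 and 1647 ± 41.4 (1.07) and UCHL1 at 4237 ± 225 and 5673 ± 22.7 (0.42). The synaptic vesicle marker SYP, on a chromosome whose genes were all at 0, gives no value.

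**Figure D5:**
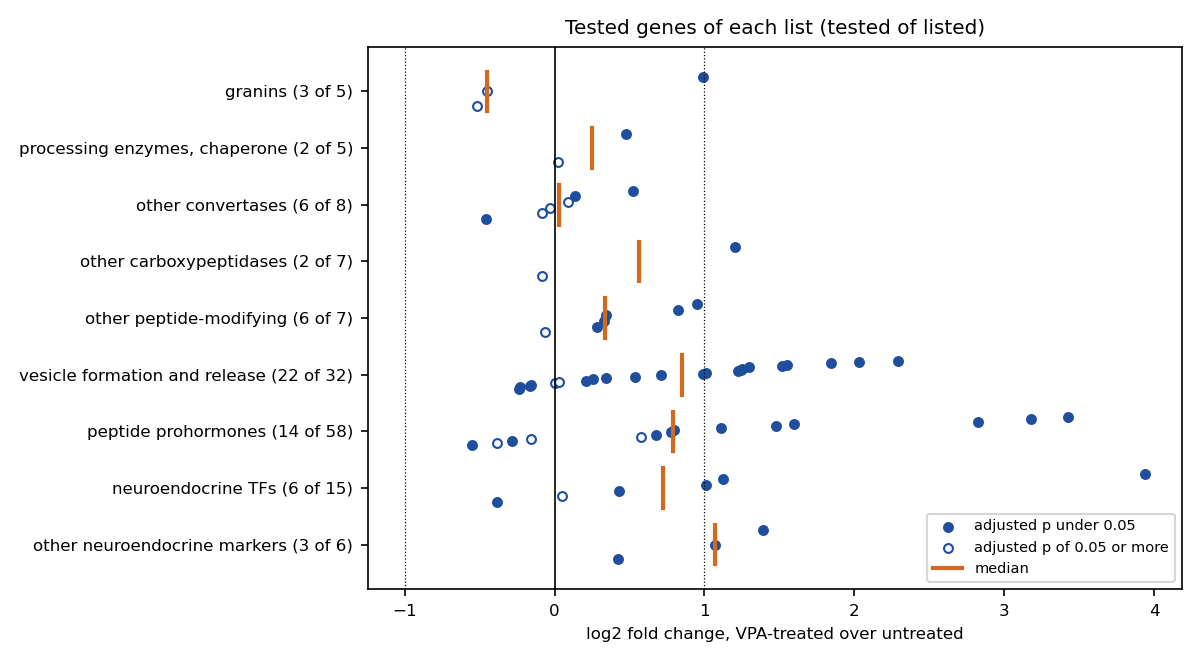
log2 fold change of each tested gene (points, x axis, VPA-treated over untreated) by gene list (y axis), filled where the adjusted p was under 0.05, with the median of each list as a bar and the threshold of 1 as a dotted line. Members lie between -0.52 and 0.99, while the vesicle transport and prohormone lists reach 2.29 and 3.42.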

How the data were processed

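RNA-seq of 6 HEK293T libraries, 3 untreated and 3 VPA-treated, was analysed. Total RNA was taken with TRIzol and made into strand-specific mRNA libraries. Reads were filtered with SOAPnuke, mapped with STAR (hg38) and assigned to genes with htseq-count by the authors, who deposited raw counts (the submitters' processing notes name STAR 2.7.10b and HTSeq 2.0.1). The strand setting of the counting, its annotation and its overlap rule are not given in the sources used here. The 5 summary lines of the counting, 11.8% to 12.7% of the entries per library, name no gene and were left out. Genes on X, on Y and in the mitochondrial genome are all listed at 0.

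Groups came from the sample labels. For the test, edgeR 4.0.16 was run in R 4.3.3 (TMM, filterByExpr with a minimum of 10 counts, equal to 0.534 CPM, in at least 3 libraries, robust quasi-likelihood fit, condition as the only term, prior count 0.125, Benjamini-Hochberg adjustment). A gene was called where the adjusted p was under 0.05 and the absolute log2 fold change was 1 or more. The script was tested on simulated data, in which only well-counted genes were changed, by more than the fold threshold. The simulation does not cover counts or differences as small as those of most members. Pooled ratios have exact conditional 95% intervals. Transcript lengths and overlaps came from GENCODE 44, and loci and promoter windows from RefSeq. The 10 members and the gene lists were chosen with earlier results of these data known. Named genes are the members, REST, genes that overlap a member, and, in each list, up to 4 called genes with the smallest adjusted p and up to 2 others with the most counts. Alternatives were DESeq2 1.42.0, other scalings, other filters, glmTreat, a prior count of 2, a replicate block, added read-through counts and leaving out each library. Protein features were planned and were not analysed here.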

Additional observations from a re-analysis of the deposited data

How the results depend on the processing

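No member was up-regulated in the edgeR test, and the count became 1 (CHGB) with scaling to library totals, 1 with scaling to ribosomal protein genes, 2 by adjusted p alone and 0 to 1 without each library. It was 0 with DESeq2, DESeq2 size factors, no filter, 10 counts in every library (3 members fitted), glmTreat, a prior count of 2 and the replicate block. It was also 0 with read-through counts added. ARHGAP11A-SCG5 was at 0 in every library, so that setting repeated the main fit and could change nothing. The down-regulated count was 0 in all of these, 0 to 0 without each library. Over all 15298 genes the median log2 fold change moved from 0.0058 to 0.14 with library totals and 0.28 with ribosomal protein genes, and the share of higher genes among all calls by adjusted p from 52.3% to 73.9% and 91.7%. PAM turned to -0.0031 with DESeq2 and -0.00021 without a filter, with a range of -0.048 to 0.056 without each library. Of 78 member values, those of the read-through setting included, 66 kept their direction and their side of the adjusted p threshold. For CHGB these include 5 that passed the fold threshold, 1.12 with library totals, 1.26 with ribosomal protein genes and 1.05, 1.08 and 1.15 without single libraries. CHGB and CPE lost their call with glmTreat, which tests against an absolute log2 fold change of 1. Their estimates of 0.99 and 0.48 lie under 1, so this loss was fixed by the threshold. The same holds for the glmTreat counts of 0 given above, since no member's estimate reached 1. The causes were not tested. The replicate block gave 0 members up-regulated and 1835 up-regulated genes in all, against 1833 without it. Libraries with the same number correlated at 0.12, 0.016 and 0.065 in their deviations, those with different numbers at -0.092 to 0.031, and not every library correlated best with its own number, so the numbers were not read as pairs. With 3 against 3 libraries and at most 27 counts in any library for 8 members, only wide intervals could be given.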
